A study of Mus musculus with 65 samples.

Results

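The cytokine genes Il1a, Ccl3 and Ccl4 were followed through 65 single-cell libraries of the embryonic mouse cortex. They are 3 of the 10407 genes in the processed tables, and they were chosen by how far their values stood apart between the groups in these same cells, so their group levels are a description with no test. The study sequenced wild-type CD1 mouse cells labelled with FlashTag, a dye that marks cells lining the ventricle at the time of injection, and each library came from 1 cell collected by patch pipette (Patch-seq). The E12 group held 20 cells of embryonic day 12, the E15 group 26 cells of embryonic day 15, and the transplanted group 19 cells of embryonic day 15 that had been placed in an embryonic day 12 host. No animal, litter or host is named in the labels, so each group counts as 1 sample and no p-value is given. The labels call the cells neuronal progenitors, and reads of a list of 14 apical progenitor genes were found in each of the 65 libraries (group ranges of the summed level: 974 to 14856 CPM, reads per 1000000 reads, in E12, 596 to 27713 CPM in E15, 961 to 15630 CPM in transplanted).

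Il1a encodes interleukin-1 alpha, a cytokine that is active as a precursor and as a cleaved form, is released from damaged cells, and signals through the type 1 interleukin-1 receptor to the adaptor Myd88 and the transcription factor NF-kB. Ccl3 and Ccl4 encode the macrophage inflammatory proteins MIP-1 alpha and MIP-1 beta, small secreted chemokines that draw leukocytes to a site of inflammation. In brain these genes are best known in microglia, the resident macrophages, where tissue damage and cell isolation are known to induce them.

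In the GRCm38 build (GENCODE vM21), Il1a lies on the minus strand of chromosome 2, from 129299610 to 129309972, with 7 annotated exons, 54597 bases from Il1b. The predicted gene Gm14023 lies on the plus strand over most of Il1a (129297370 to 129307826), and without a stated strand setting in the counting, reads of one cannot be told from reads of the other. Ccl3 (chromosome 11, 83647844 to 83649355, minus strand, 3 exons) and Ccl4 (chromosome 11, 83662584 to 83664683, plus strand, 3 exons) are neighbours with 13228 bases between them. The longest run of bases shared by their transcripts, which are 766 and 660 bases long, was 9 bases. Sequences before the start of transcription were matched in RefSeq (GRCm38.p6) for Il1a and Ccl3. They are shown because both genes had their highest levels in the same E15 libraries. Capitals mark matches on either strand to the letters of AP-1 (TGANTCA), of PU.1 (GAGGAA) or of a TATA box (spelled TATAAA), and no matches overlap. Il1a is at chr2:129309973-129310222 and Ccl3 at chr11:83649379-83649628, each read 5′ to 3′ on the minus strand.
Il1a: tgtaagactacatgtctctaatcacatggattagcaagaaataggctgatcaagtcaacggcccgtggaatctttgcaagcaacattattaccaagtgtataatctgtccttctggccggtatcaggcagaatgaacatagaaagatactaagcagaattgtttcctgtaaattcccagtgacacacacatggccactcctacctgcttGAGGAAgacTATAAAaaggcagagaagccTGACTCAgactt
Ccl3: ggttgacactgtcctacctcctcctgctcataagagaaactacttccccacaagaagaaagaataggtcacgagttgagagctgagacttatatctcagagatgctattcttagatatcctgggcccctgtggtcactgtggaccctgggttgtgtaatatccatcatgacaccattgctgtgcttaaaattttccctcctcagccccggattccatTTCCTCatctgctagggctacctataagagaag
The Il1a window holds the AP-1 letters from -12 to -6, the TATA letters from -32 to -27 and the PU.1 letters from -41 to -36, counted back from the start. The Ccl3 window holds the PU.1 letters on the opposite strand, from -33 to -28. Among 32851 RefSeq promoter windows of the same length, 6.75% hold the AP-1 letters, 23.3% the PU.1 letters and 7.59% the TATA letters. The letters of an NF-kB site (GGGNNNNNCC, in 45.8% of windows) were not in either window. These matches are a description of letters, not of binding.

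Libraries differed in depth and in the number of genes found. E12 libraries held 10928 to 1635767 reads (4942302 in all), E15 libraries 11449 to 4560871 (37479005 in all) and transplanted libraries 22358 to 3622411 (12716263 in all). In 16 libraries more than 8000 genes had a read, and these were 11 of 26 in E15, 5 of 19 in transplanted and 0 of 20 in E12. The 11 E15 libraries of this kind also stood apart from the other 15 in the lists of other cell types. Their summed level of 11 ventral interneuron genes was 2526 to 4468 CPM, against a median of 48.0 CPM (0 to 3224) in the other 15 E15 libraries. Their summed apical progenitor level was 596 to 4193 CPM (median 1730) against a median of 15281 CPM (1815 to 27713) in the other 15. The 5 transplanted libraries of this kind had medians of 2733 CPM (109 to 2880) and 2088 CPM (961 to 2638) for these 2 lists. In the other 14 transplanted libraries the medians were 232 and 6617 CPM. Summed neuron genes had medians of 4341 against 807 CPM in E15 and 5126 against 1133 CPM in transplanted libraries. Group results are therefore given with and without the libraries above 8000 genes. No 2 libraries were identical, and the method used no molecular identifiers, so all intervals below are 95% limits for counting error alone.

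Il1a reads came almost entirely from E15 cells. In E12, 3 of 20 cells held 1 read each (cell levels 0 to 13.3 CPM, median 0), which came to 3 reads and a group level of 0.607 CPM (0.125 to 1.77). In E15, 17 of 26 cells held reads, with cell levels from 0 to 776 CPM and a median of 24.7 CPM. The 8287 E15 reads came to 221 CPM (216 to 226) for the group. In transplanted cells, 5 of 19 held reads (0 to 48.6 CPM, median 0), and the 86 reads came to 6.76 CPM (5.41 to 8.35). The E15 cells spread over the whole range of the other groups, since 9 of 26 had no Il1a read, while the 11 highest cells of the series were all E15 cells. E15 replicate 5 alone held 2499 reads (30.2% of the E15 total), and the 5 highest E15 cells held 90.6%. In transplanted cells 1 library decided the level: replicate 14 held 74 of the 86 reads, and without it the group stood at 1.08 CPM.

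Ccl3 was found in more E12 cells than Il1a, but its E12 level also rested on 1 cell. In E12, 6 of 20 cells held reads (0 to 636 CPM, median 0), and 129 reads gave 26.1 CPM (21.8 to 31.0). Of these, 111 lay in E12 replicate 1, without which the group stood at 3.78 CPM. In E15, 20 of 26 cells held reads, from 0 to 1322 CPM with a median of 59.5 CPM, and 11814 reads gave 315 CPM (310 to 321). In transplanted cells, 8 of 19 held reads (0 to 175 CPM, median 0), and 295 reads gave 23.2 CPM (20.6 to 26). Those transplanted reads were less concentrated than for Il1a, with 114 in replicate 14, 91 in replicate 19 and 66 in replicate 6. The highest E12 cell and the highest transplanted cell both stood above the E15 median.

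Ccl4 had the widest gap between E15 and transplanted cells. In E12, 8 of 20 cells held reads (0 to 63.7 CPM, median 0), and 42 reads gave 8.50 CPM (6.12 to 11.5). In E15, 20 of 26 cells held reads, from 0 to 2172 CPM with a median of 56.9 CPM, and 24863 reads gave 663 CPM (655 to 672). In transplanted cells, 11 of 19 held at least 1 read (0 to 727 CPM, median 1.27 CPM), yet 50 reads in all gave only 3.93 CPM (2.92 to 5.18). Replicate 8, a library of 39900 reads, held 29 of these 50 and was the 727 CPM cell. Without it the transplanted level was 1.66 CPM. Among E15 cells, replicate 5 again held the most reads, 8588 or 34.5% of the E15 total.

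**Figure D1:**
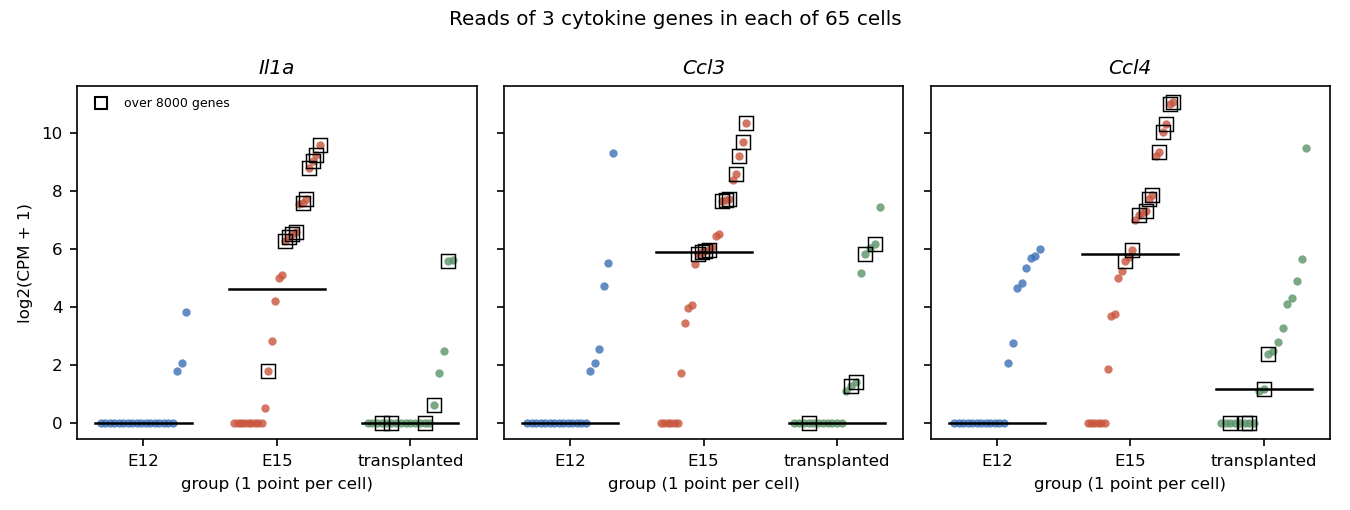
Levels of Il1a, Ccl3 and Ccl4 in each of the 65 cells, as log2(CPM + 1), by group (E12, E15 and transplanted). Each point is 1 cell, bars are group medians and squares mark the libraries above 8000 genes. The highest Il1a cells are all E15 cells and most carry a square, while the highest E12 cell for Ccl3 (636 CPM) and the highest transplanted cell for Ccl4 (727 CPM) stand above the E15 medians of 59.5 and 56.9 CPM.

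With reads of a group added up, E15 stood above E12 for all 3 genes. The CPM ratio of E15 over E12 was 364 for Il1a (125 to 1767, resting on 3 E12 reads), 12.1 for Ccl3 (10.2 to 14.5) and 78.1 for Ccl4 (57.7 to 108). On the log2 scale with 1 CPM added, used in the rest of the text, these were 7.11, 3.54 and 6.13. Of the 10193 genes at 5 CPM or more in either group, 25.3% were higher in E15 by a log2 ratio of at least 1, and the median of all was -0.03. Il1a had the highest log2 ratio of all those genes, Ccl4 was the 15th and Ccl3 the 484th. These places are what the genes were selected on and support nothing further.

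Transplanted cells stood below E15 cells for all 3 genes. The E15 level was 32.7 times the transplanted level for Il1a (26.4 to 40.9), 13.6 times for Ccl3 (12.1 to 15.3) and 169 times for Ccl4 (128 to 227). The log2 ratios of transplanted over E15 were -4.84, -3.71 and -7.07. Of 10163 genes, 11.8% were lower in transplanted cells by a log2 ratio of at least 1, with a median of -0.08. Ccl4 had the lowest log2 ratio of all those genes, Il1a the 8th lowest and Ccl3 the 24th lowest. This comparison shares its E15 cells with the previous one.

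Transplanted and E12 cells differed far less. Il1a had a log2 ratio of transplanted over E12 of 2.27, which fell to 0.37 without transplanted replicate 14. Ccl3 stood at -0.16, with a CPM ratio of 0.889 whose interval (0.720 to 1.10) includes equality, and at 2.34 without E12 replicate 1. Ccl4 stood at -0.95 (CPM ratio 0.463, 0.301 to 0.715). Of 9931 genes, 22.9% were higher in transplanted cells by a log2 ratio of at least 1, and of the cytokine genes only Il1a was among them. The order of the groups by added reads was E15, transplanted, E12 for Il1a and E15, E12, transplanted for Ccl3 and Ccl4, but the lower 2 places exchanged or closed up when a single cell was left out for Ccl3.

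Most of the E15 reads lay in the libraries above 8000 genes. These 11 libraries held 70.6% of all E15 reads but 99.2% of the Il1a reads, 94.0% of the Ccl3 reads and 97.4% of the Ccl4 reads. For E15 genes at 5 CPM or more, the median share in them was 69.4%. Every one of the 11 held reads of all 3 genes, at 2.45 to 776 CPM for Il1a, 56.6 to 1322 CPM for Ccl3 and 47.2 to 2172 CPM for Ccl4. The 5 transplanted libraries above 8000 genes were lower in added reads, though replicate 14 lay inside the E15 ranges for Il1a (47.1 CPM) and Ccl3 (72.5 CPM). For Ccl4 all 5 lay below the E15 range, at 0 to 4.21 CPM. Added up, the 5 stood at 9.41 CPM for Il1a (74 of 76 reads in replicate 14), 23.2 CPM for Ccl3 and 0.867 CPM for Ccl4. The 11 E15 libraries stood at 311, 420 and 915 CPM. The summed level of the microglia genes described below also differed between these libraries, with a median of 31.7 CPM (5.06 to 2451) in the 5 transplanted and 3128 CPM (867 to 10632) in the 11 E15 libraries.

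In the 49 libraries at or below 8000 genes, the direction of the added reads held and the gaps were smaller. For Ccl3 that direction rested on 1 E15 library. The E15 level was 6.26 CPM for Il1a (69 reads in 6 of 15 cells, 43 of them in replicate 14), 63.8 CPM for Ccl3 (703 reads in 9 of 15, 493 of them in replicate 10) and 59.5 CPM for Ccl4 (656 reads in 9 of 15, 226 of them in replicate 10). The transplanted levels were 2.16 CPM for Il1a (10 reads in 3 of 14 cells, 6 of them in replicate 19) and 23.3 CPM for Ccl3 (108 reads in 4 of 14, 91 of them in replicate 19). For Ccl4 the level was 9.27 CPM (43 reads in 9 of 14, 29 of them in replicate 8). Transplanted replicate 19 also held 55.7% of all reads of these 14 libraries, so added reads of this group lean on it throughout this subset. The log2 ratios of E15 over E12 became 2.18, 1.26 and 2.67, beside 24.2% of 9819 genes higher by at least 1. The log2 ratios of transplanted over E15 became -1.20, -1.42 and -2.56, beside 28.0% of 9799 genes lower by at least 1. All 3 genes were past this limit in both comparisons, as were those shares of all genes. What part these libraries have in the full difference was not tested.

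The 3 genes were often found in the same E15 cell. All 3 had a read in 16 of 26 E15 cells, 1 of 20 E12 cells and 3 of 19 transplanted cells, and none of them in 4, 10 and 5 cells. With a minimum of 10 reads for each gene, 11 E15 cells held all 3 and no E12 or transplanted cell did. These were libraries above 8000 genes except replicate 14 (43 Il1a, 21 Ccl3 and 136 Ccl4 reads). Across the 26 E15 cells, Pearson's r of log2(CPM + 1) was 0.88 for Ccl3 with Ccl4, 0.75 for Il1a with Ccl4 and 0.69 for Il1a with Ccl3. Across the 19 transplanted cells the values were 0.10, 0.03 and 0.56. Across the 49 libraries of all groups at or below 8000 genes they were 0.42, 0.33 and 0.34, and across all 65 cells 0.67, 0.67 and 0.68. Genes of the same cell share its depth and its zeros, so these coefficients describe the libraries and carry no p.

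With all libraries used, reads of Ccl4 per read of Ccl3 were highest in E15, and single libraries set the value in the other groups. For each Ccl3 read there were 2.10 Ccl4 reads in E15 (2.06 to 2.15), and no single library moved this by over 1.5 times. In E12 there were 0.326 (0.224 to 0.464), and this turned to 2.33 without replicate 1, which held 111 Ccl3 and 0 Ccl4 reads, and was 0.214 without replicate 17. In transplanted cells there were 0.169 (0.123 to 0.229), with 0.0712 without replicate 8 (0 Ccl3 and 29 Ccl4 reads) and 0.265 without replicate 14. In the 49 libraries at or below 8000 genes the ratio was 0.933 in E15 (0.838 to 1.04) and 0.398 in transplanted cells (0.273 to 0.572). There it was 2.05 without E15 replicate 10 (493 Ccl3 and 226 Ccl4 reads), 2.35 without transplanted replicate 19 and 0.130 without transplanted replicate 8. Among transplanted cells, replicate 14 held 114 Ccl3 and 2 Ccl4 reads, replicate 19 held 91 and 3, and replicate 6 held 66 and 5. Of 15 E15 cells with at least 50 reads of both genes together, 11 held more Ccl4 than Ccl3 reads. The 3 with fewer were replicate 6 (157 Ccl3 and 125 Ccl4 reads), replicate 10 and replicate 11 (96 and 75), and replicate 16 held 25 of each. PCR copies of 1 molecule count as separate reads here, so low counts of either gene can rest on few molecules.

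**Figure D2:**
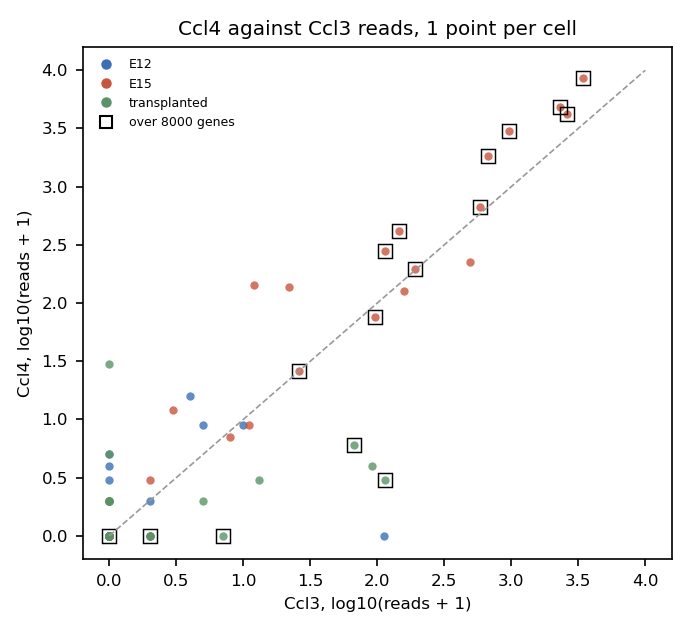
Ccl4 reads against Ccl3 reads in each of the 65 cells, both as log10(reads + 1), coloured by group, with squares for libraries above 8000 genes and a dashed line at equal reads. E15 cells with many reads lie mostly on or above the line (2.10 Ccl4 reads per Ccl3 read in all), and 3 transplanted cells with 66 to 114 Ccl3 reads lie far below it.

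The labels assign each cell to 1 of 8 pools, A to H, without saying what a pool is, and the E15 reads were uneven over them. Pools B, C and D held 95.8% of the E15 reads of Il1a, 86.5% of those of Ccl3 and 92.8% of those of Ccl4, with 55.6% of all E15 reads. All 3 E15 libraries of pool B, all 4 of pool C and 1 of 3 of pool D were above 8000 genes. Pools F, G and H held 1 such E15 library each, so the shares by pool overlap with those by library kind. Within pools, E15 stood above E12 in 6 of 8 for Il1a, 7 of 8 for Ccl3 and 7 of 8 for Ccl4. Pool H is counted in each, but its E12 side was 1 cell of 10928 reads with 0 reads of each gene. That depth is too low to decide against E15 levels of 90.3, 208 and 212 CPM there. Transplanted cells stood below E15 in 5 of 7 pools for Il1a, 6 of 7 for Ccl3 and 6 of 7 for Ccl4 (pool F has no transplanted cell). Pool E was the exception for Ccl3 and Ccl4 in E15 over E12: its 4 E15 cells, with 3946302 reads, held 0 Il1a, 0 Ccl3 and 1 Ccl4 reads. For Il1a all groups of pool E were at 0. None of those 4 libraries was above 8000 genes. Pool A, also without such libraries, had E15 levels of 0.851 CPM for Il1a, 47.9 CPM for Ccl3 and 76.0 CPM for Ccl4. Its Il1a level in E15 (3 reads) lay below those of E12 (3.01 CPM, 2 reads) and transplanted cells (2.69 CPM, 10 reads). In pool B the 3 E15 cells held 4281 Il1a reads, while the 4 E12 and transplanted cells of that pool held 0 of 958199, which allows up to 3.13 CPM. In pool C the 4 E15 cells held 2141 Il1a reads and their 4 neighbours 0 of 1354073, which allows up to 2.22 CPM.

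**Figure D3:**
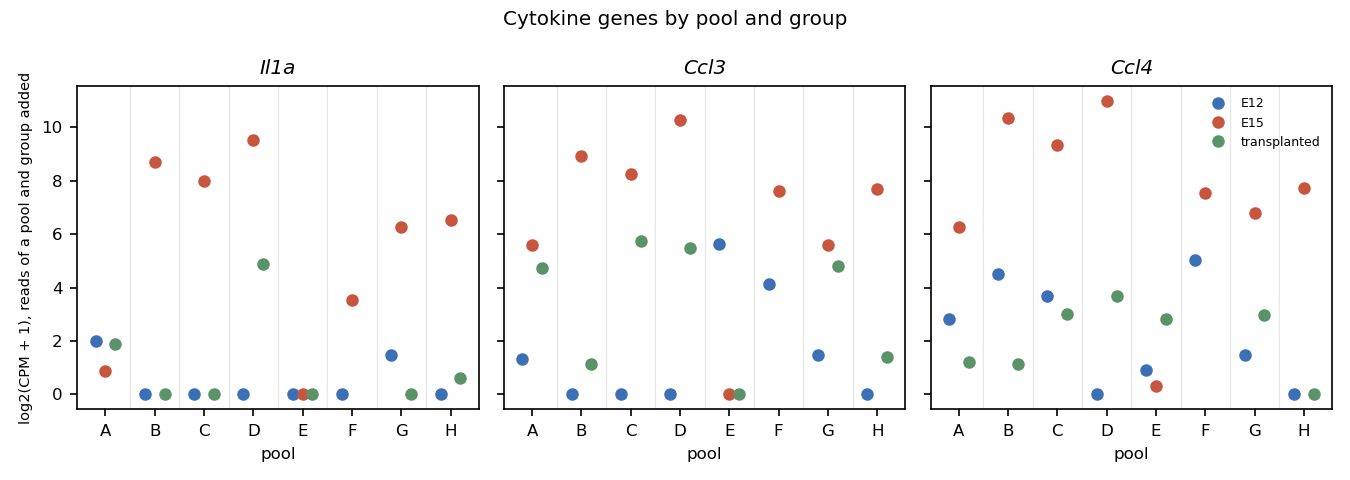
Levels of Il1a, Ccl3 and Ccl4 in each of the 8 pools, as log2(CPM + 1) of the added reads of a pool and group, with 1 point per group. E15 points lie highest in pools B, C and D, at 255 to 732 CPM for Il1a, and at or next to 0 in pool E.

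Markers of microglia moved with the cytokine genes when all libraries were used. All 22 genes of a microglia list were in the tables. Their summed level was 170 CPM in E12 (cells 0 to 1590, median 39.3), 3664 CPM in E15 (2.64 to 10632, median 861) and 1280 CPM in transplanted cells (0 to 23008, median 422). Of the 22, 20 were higher in E15 than in E12 by a log2 ratio of at least 1 and 0 lower (median 5.30), and 18 were lower in transplanted than in E15 cells and 0 higher (median -1.73). In every list here, a gene was counted at 5 CPM or more in either group. A gene that passed only through E15 leans higher in E15 by that rule. Most of the 22 passed so in E15 over E12, and their counts support nothing further. Without the libraries above 8000 genes, 16 of 19 were higher and 2 lower in E15 than in E12 (median 3.87). There the microglia genes no longer went with the cytokine genes in transplanted over E15. Of 20, 9 were higher, 5 lower and 6 between (median 0.43), beside 18.7% of all genes higher and 28.0% lower, so the 5 lie near that share. All 3 cytokine genes stayed lower in added reads, though Ccl3 did not without E15 replicate 10. The microglia counts lean on single libraries. Transplanted replicate 18 held 6905 of the 9815 list reads of its group there, and E15 replicate 10 held 12836 of 16069. The counts without these libraries were not made. The defining genes included Csf1r, the receptor of the macrophage growth factor, at 1.21, 148 and 55.6 CPM in E12, E15 and transplanted cells. C1qa, a chain of complement C1q, stood at 1.01, 163 and 69.2 CPM, and the fractalkine receptor gene Cx3cr1 at 0.809, 71.9 and 5.50 CPM. The listed genes with the most reads were Tyrobp, a signalling adaptor of myeloid receptors (32.8, 504 and 187 CPM), C1qb (4.45, 446 and 237 CPM) and C1qc (4.45, 455 and 122 CPM). In E12, 3 of the 22 genes were at 0, Tmem119, Olfml3 and Gpr34. Of lists for other myeloid and lymphoid cells, 1 of 8 border macrophage genes (Dab2: 1.42, 20.9 and 2.20 CPM) and 1 of 10 monocyte, granulocyte and mast cell genes (S100a8: 0.809, 8.80 and 2.60 CPM) were measured. The others, Mrc1 and Pf4 among them, and the 8 lymphocyte genes were not analysed here. The part of microglial RNA in the cytokine differences was not tested.

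Cytokine reads were also set against the reads of the microglia list. Per 1000 reads of the list, E15 cells held 60.3 reads of Il1a, 86.0 of Ccl3 and 181 of Ccl4, and no single library moved these by over 1.5 times. Transplanted cells held 5.28, 18.1 and 3.07. Replicate 18 held 6905 of their 16279 list reads, and without it the figures were 9.17, 31.4 and 5.33. Without replicate 14 the Il1a figure was 0.933, and without replicate 8 the Ccl4 figure was 1.37. The E12 figures, 3.57, 154 and 50, rest on 840 list reads. Without E12 replicate 1, whose own microglia sum was 40.1 CPM, the Ccl3 figure was 21.6, and without replicate 17 the Ccl4 figure was 33.0. In the libraries at or below 8000 genes single libraries held most of the list reads (E15 replicate 10, 12836 of 16069; transplanted replicate 18, 6905 of 9815). In cells with at least 100 list reads (4 E12, 17 E15 and 7 transplanted), the medians for Il1a were 0, 49.2 and 3.88, those for Ccl3 2.19, 39.9 and 22.6, and those for Ccl4 0, 99.5 and 1.72. The E15 and transplanted ranges overlapped for each gene, from 0 to 122 and 0 to 21.6 for Il1a, from 0 to 208 and 0 to 58.8 for Ccl3, and from 0 to 342 and 0 to 31.6 for Ccl4.

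Single cells with like microglia sums differed in their cytokine reads. Transplanted replicate 18 had a microglia sum of 8114 CPM, close to that of E15 replicate 5 (8387 CPM), and 0 Il1a, 1 Ccl3 and 0 Ccl4 reads among its 850956 reads. E15 replicate 5 held 2499, 3442 and 8588 among its 4096356 reads. E15 replicate 10 had a sum of 8655 CPM with 9 Il1a, 493 Ccl3 and 226 Ccl4 reads, and E15 replicate 25 one of 3128 CPM with 7, 585 and 671. In these 2 E15 cells Il1a was low while the 2 chemokine genes were not. Both belong to pool F, but so does E15 replicate 14, with 43 Il1a (187 CPM), 21 Ccl3 and 136 Ccl4 reads. Across the 26 E15 cells, r with the microglia sum (both as log2 of CPM + 1) was 0.74 for Il1a, 0.91 for Ccl3 and 0.82 for Ccl4, and across the 19 transplanted cells 0.31, 0.37 and 0.56. In E15 cells r with the number of genes found was 0.66, 0.65 and 0.73.

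**Figure D4:**
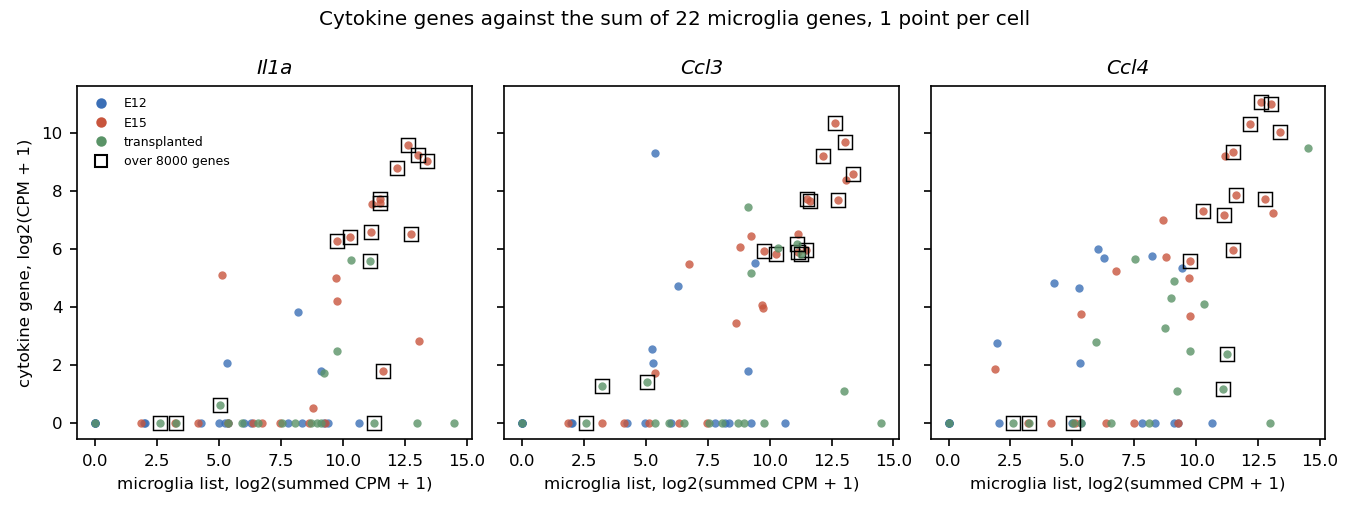
Levels of Il1a, Ccl3 and Ccl4 against the summed level of 22 microglia genes in each of the 65 cells, both as log2(CPM + 1), coloured by group, with squares for libraries above 8000 genes. E15 cells rise along the microglia sum, and transplanted cells with sums of 8114 and 23008 CPM lie at 0 for Il1a. The 23008 CPM cell is transplanted replicate 8, a library of only 39900 reads and the highest transplanted cell for Ccl4 (727 CPM).

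Other ligands of the interleukin-1 family went in the direction of Il1a. Il1b, which encodes the secreted interleukin-1 beta, stood at 1.42 CPM in E12, 96.7 CPM in E15 and 2.99 CPM in transplanted cells. The gene of the receptor antagonist, Il1rn, stood at 1.01, 7.92 and 3.46 CPM, and Il18 at 0.202, 17.6 and 8.89 CPM. All 3 were past a log2 ratio of 1 in E15 over E12 (median 3.95), and 2 of 3 were past -1 in transplanted over E15 (median -1.001). All 3 reached 5 CPM in E15 and not in E12, so the first count was close to fixed by that limit. The 2 lower in transplanted cells, Il1b and Il1rn, also reached it only in E15. In transplanted cells 81.6% of the Il1b reads, 97.7% of the Il1rn reads and 73.5% of the Il18 reads lay in 1 cell each. The receptor genes Il1r1 and Il1rap were not analysed here.

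Genes that carry the interleukin-1 signal or process its ligands were less uniform. Of 4 measured transducers, 2 were higher in E15 than in E12, Myd88, the receptor adaptor (0.809, 27.9 and 21.7 CPM in E12, E15 and transplanted cells), and Tollip, an inhibitor of the receptor complex (21.2, 63.0 and 72.3 CPM). The kinase gene Irak1 (30.8, 54.4 and 32.2 CPM) and the ubiquitin ligase gene Traf6 (25.3, 33.2 and 62.4 CPM) stayed inside a log2 ratio of 1. In transplanted over E15, 0 of the 4 were past 1 in either direction (median -0.08), but without the libraries above 8000 genes 3 of the 4 were higher in transplanted cells (median 1.17). In E12, 90.4% of the Traf6 reads and in transplanted cells 85.1% of the Myd88 reads lay in 1 cell. Of 5 processing genes, 4 were higher in E15 than in E12 (median 3.06). Pycard, the inflammasome adaptor, stood at 10.7, 136 and 51.5 CPM, the protease genes Casp1 and Casp4 at 0, 7.36 and 1.18 and at 0, 6.40 and 0.0786 CPM, and the pore-forming Gsdmd at 0, 14.9 and 17.9 CPM. Pycard, Casp1 and Casp4 were the 3 of 5 that were lower in transplanted than in E15 cells (median -1.38). Without the libraries above 8000 genes, 0 of 3 at 5 CPM or more were lower and 1 was higher (median 0.48). Of the E12 Pycard reads, 90.6% lay in 1 cell. Capn2, a subunit of a calpain, the protease class that cleaves the interleukin-1 alpha precursor, stood at 43.5, 52.7 and 59.8 CPM.

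Among the other chemokine ligands, 9 of 10 at 5 CPM or more were higher in E15 than in E12 and 1, Ccl25, was lower (median 3.27). In transplanted over E15, 6 were lower, 1 was higher and 3 lay between (median -2.01), and without the libraries above 8000 genes 5 were lower and 3 higher (median -1.10). Cxcl2, a neutrophil chemokine, stood at 41.3, 213 and 21.7 CPM in E12, E15 and transplanted cells, and Ccl2, a monocyte chemokine, at 0.607, 92.7 and 7.63 CPM, with 88.7% of its transplanted reads in 1 cell. Ccl12, of the same family, stood at 23.3, 64.0 and 15.2 CPM, with 96.5% of its E12 reads in 1 cell. Ccl9, which lies with Ccl6 on chromosome 11 close to Ccl3 (83572919 to 83578636), was the one that was higher in transplanted cells, at 0.202, 13.6 and 52.0 CPM, with 84.6% of its transplanted reads in 1 cell. Its neighbour Ccl6 stood at 0.405, 21.7 and 3.22 CPM. Of 4 receptor genes, 4 were higher in E15 than in E12 (median 5.04) and 3 lower in transplanted than in E15 cells (median -1.85). All 4 were below 1 CPM in E12 and were counted through E15, so the first count was close to fixed. Without the libraries above 8000 genes, 0 of 3 were past 1 in either direction in transplanted over E15 (median 0.39). The 3 lower ones were Cx3cr1, Ccrl2 (0.607, 60.5 and 9.44 CPM) and Cxcr4, the receptor of Cxcl12 (0.607, 6.62 and 2.44 CPM), while the scavenging receptor gene Ackr3 stood at 0.809, 50.3 and 65 CPM. In transplanted cells 89.2% of the Ccrl2 reads and 85.0% of the Ackr3 reads lay in 1 cell.

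Genes of the NF-kB pathway and its targets did not move as 1 group. Of 18, 7 were higher and 4 lower in E15 than in E12 (median 0.31), and 1 was higher and 5 lower in transplanted than in E15 cells (median -0.41). Of all genes, 20.3% were lower in E15 than in E12 and 4.71% higher in transplanted than in E15 cells by a log2 ratio of at least 1, so the 4 and the 1 lie near the shares of all genes. Nfkbia, the inhibitor that NF-kB itself induces, stood at 407, 462 and 255 CPM in E12, E15 and transplanted cells. The subunit gene Rela stood at 135, 66.9 and 66.1 CPM, the inhibitor gene Nfkbib at 45.9, 92.0 and 101 CPM, and Sod2, a mitochondrial superoxide dismutase gene, at 137, 113 and 112 CPM. In the 49 libraries at or below 8000 genes these medians turned, to -1.49 (2 higher, 8 lower of 13) and 1.47 (10 higher, 0 lower of 15), beside 21.6% of all genes lower in E15 than in E12 and 18.7% higher in transplanted than in E15 cells there. The cytokine gene Tnf stood at 13.2, 76.3 and 15.6 CPM, with 95.4% of its E12 reads in 1 cell, and Csf1, the macrophage growth factor gene, at 11.5, 19.1 and 5.58 CPM, with 98.2% of its E12 reads in 1 cell. Of 16 immediate-early and heat-shock genes, a group that cell handling is known to induce, 6 were higher and 3 lower in E15 than in E12 (median 0.64), beside the 25.3% and 20.3% of all genes. In transplanted over E15, 10 of the 16 were lower and 0 higher (median -1.37), beside 11.8% and 4.71% of all genes. The AP-1 subunit genes Jund and Jun stood at 205, 450 and 304 and at 268, 130 and 175 CPM, Ier2 at 236, 127 and 109 CPM, and the chaperone gene Dnajb1 at 87.2, 127 and 114 CPM in E12, E15 and transplanted cells. In the 49 libraries at or below 8000 genes the median of the 16 in transplanted over E15 was -0.01. There 6 were lower and 2 higher, beside 28.0% and 18.7% of all genes. The part of cell handling in the cytokine levels was not tested.

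The genes most like each cytokine gene over the 65 cells were largely different ones. Among 9823 genes with a read in at least 10 cells, Il1a was most like Inpp5d, a lipid phosphatase of blood cells (r = 0.85), then Ccl2 (0.83), Lpxn (0.82), Pilra and Nfkbiz (both 0.81), Cd33 and Hcls1 (both 0.80), and Smim3 and Ncf1 (both 0.79). Ccl3 was most like Gngt2 (0.78), Parvg (0.76), Gmfg and Cd14 (both 0.75), with Ccrl2, Bcl2a1b, Ncf1, Nfkbiz, Aif1 and Pilra at 0.74 to 0.75. Bcl2a1b belongs to a family of near-identical copies, so its reads are uncertain. Ccl4 was most like Cx3cr1 (0.75), Rab20, Fcgr1, Ly86, Spi1, Fermt3, Pld4, Lst1, C1qb and Arhgdib (0.70). Il1a and Ccl3 shared 3 of their 10 genes (Ncf1, Nfkbiz and Pilra), which is 30% of each list, and neither shared a gene with Ccl4. The microglia list, 22 of the 9823 genes, held 0 of the 10 genes most like Il1a, 1 of those most like Ccl3 and 4 of those most like Ccl4. With a list this small, the 0 does not set Il1a apart from microglia genes. Over the 65 cells, r with the microglia sum was 0.58, 0.63 and 0.64 for Il1a, Ccl3 and Ccl4. In libraries at or below 8000 genes, 4, 4 and 7 of the 10 were again among the genes that were most like Il1a, Ccl3 and Ccl4.

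At equal depth the E15 cells still held the genes more often. With each library thinned to 29805 reads, and 3, 2 and 2 shallower cells left out, Il1a was found in 0 of 17 E12, 13 of 24 E15 and 1 of 17 transplanted cells. Ccl3 was found in 4, 13 and 5 of these cells and Ccl4 in 4, 16 and 5. Without thinning, the shares of cells with a read in E12, E15 and transplanted cells were 15%, 65.4% and 26.3% for Il1a, 30%, 76.9% and 42.1% for Ccl3, and 40%, 76.9% and 57.9% for Ccl4. The 0 of 17 for Il1a limits the share of such E12 cells with a read only to below 19.5% (upper exact Clopper-Pearson limit). On the deposited scale, log10 values from which the authors had removed further variation, the groups overlapped widely. The lowest, median and highest values of Il1a were -0.43, 0.0045 and 0.18 in E12, -0.71, 0.22 and 1.10 in E15, and -0.83, -0.28 and 0.34 in transplanted cells. For Ccl3 the medians were -0.07, 0.18 and -0.30 and for Ccl4 -0.10, 0.19 and -0.37, so that E15 had the highest and transplanted cells the lowest median for each gene.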

How the data were processed

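Single cells were sequenced with a 3′ SMART-Seq v4 kit and Nextera XT, per the labels' protocols. STAR, HTSeq and the build mm10 are named in the submitters' processing notes, with versions not given in the sources used here. The deposited log10 values had been centred per gene by the authors and freed of 2 further directions over cells, as the values show. The design had assumed counts, so reads were recovered from these log10 values. All 356667 nonzero values came out within 0.01 of a whole number, and each of the 10407 genes was read in at least 6 cells. On simulated data 100% of 4060 genes were recovered. Summed reads of each group were turned into CPM over these genes, and 1 CPM was added for log2 ratios. Poisson, Clopper-Pearson and conditional binomial 95% limits were exact. Without named animals, no test was made. Doublets were not treated. The members and the 19 gene lists were chosen with earlier results of these data known. Named genes were the members, every measured gene of a pathway list with up to 5 and otherwise the 4 with the highest CPM, the defining and top 3 genes of each cell type list (printed for myeloid lists), and the 10 genes most like each member. Of those most like Il1a, 1 is not reported here. Ccl12, Ccl9, Ccl6, Ccl25 and the microglia genes at 0 were named after their values were seen. The scripts used SciPy 1.17.1 and NumPy 2.4.6 under Python 3.11.15.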

Additional observations from a re-analysis of the deposited data

How the results depend on the processing

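The log2 ratios below are in the order E15 over E12, transplanted over E15, transplanted over E12, and only values beyond the counting interval of the value reported above are given. E15 stayed above E12, and transplanted stayed below E15, for all 3 genes under every alternative run, while transplanted over E12 changed sign for each gene under at least 1 of them. From the deposited values, Il1a gave 0.85, -1.77 and -0.92 (a change of sign), Ccl3 0.76, -1.79 and -1.03, and Ccl4 1.05 and -2.16. With the mean CPM over cells, Il1a gave 6.08 and -4.35, Ccl3 2.29, -3.01 and -0.72, and Ccl4 4.61, -2.92 and 1.69. At equal depth, Il1a gave -5.80 in transplanted over E15, Ccl3 gave 1.75, -2.67 and -0.92, and Ccl4 gave 5.004, -2.98 and 2.03. As the mean of ratios within pools, Il1a gave 4.99 (E15 over E12) and 0.56 (transplanted over E12), Ccl3 5.19, -3.30 and 2.13, and Ccl4 5.12, -5.28 and 0.21. Without libraries above 8000 genes, Il1a gave 2.18, -1.20 and 0.97, Ccl3 1.26 and -1.42, and Ccl4 2.67, -2.56 and 0.11, and 2745 genes in place of 1197 were lower in transplanted than in E15 cells by a log2 ratio of at least 1. A pseudocount of 0.1 CPM gave 8.29 (E15 over E12) and 3.28 (transplanted over E12) for Il1a. A pseudocount of 5 CPM gave 5.33, -4.26 and 1.07 for Il1a, -3.51 in transplanted over E15 for Ccl3, and 5.63 and -6.23 for Ccl4. Median-of-ratios scaling and totals without ribosomal and mitochondrial genes moved none of the 9 ratios beyond its interval. The cause of these moves was not tested.

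Leaving out each cell in turn gave ranges of 6.76 to 7.30, -6.74 to -4.44 and 0.37 to 2.67 for Il1a, 2.98 to 6.05, -4.20 to -3.27 and -0.73 to 2.34 for Ccl3, and 5.60 to 6.52, -7.97 to -6.63 and -1.84 to -0.55 for Ccl4. The ends were set by transplanted replicate 14 (-6.74 and 0.37, Il1a), E12 replicate 1 (6.05 and 2.34, Ccl3) and transplanted replicate 8 (-7.97 and -1.84, Ccl4). No fit with a replicate block was made, since no test was made and the labels do not say that a replicate number is shared between groups. The ratios within pools above are the one matched comparison. Leaving out single cells from the ratios of Ccl4 to Ccl3 and to the microglia list was chosen after seeing the data. Depth limits E12 most, where 3 Il1a reads among 4942302 carry the group's level.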
